A study of Drosophila melanogaster with 2 samples.

Results

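The regions described here are places inside introns, close to a transcription start site (TSS), where the transcription factor dimmed (dimm) was found on chromatin of whole Drosophila melanogaster embryos. They were chosen by position alone from the list of regions that both replicates share, the conservative list. Overlapping peaks on the main chromosomes were joined, and a region was kept when its summit lay within a gene, in no annotated exon, and more than 500 but at most 2000 bp from the nearest annotated TSS. Of 1739 regions, 283 met these conditions (16.3%, 95% Wilson interval 14.6 to 18.1%). The study has 1 group: embryos of the strain dimm-GFP, aged 0 to 24 hours, which carried a transgene coding for dimm joined to enhanced green fluorescent protein (eGFP). Chromatin immunoprecipitation used an antibody to GFP, followed by sequencing (ChIP-seq), on 2 biological replicates. No untreated or untagged library was analysed here, and what drives the transgene, and whether native dimm is also present, is not given in the labels. Whole embryos mix every tissue, so strong binding in few cells and weak binding in many cannot be told apart.

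Dimm belongs to the basic helix-loop-helix (bHLH) proteins, which bind DNA as dimers at short sites called E-boxes, written CANNTG. In Drosophila it is known as a regulator of the secretory program of peptide-releasing neuroendocrine cells. Introns near a start site often hold enhancers and alternative promoters, and a long gene can have several start sites, so that sequence intronic to a long transcript may lie just before the start of a shorter one.

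The 8 strongest of these regions that were printable and listed in both replicates are shown first, as the summit base with 50 bases to either side, because they show the base composition that most of the regions share. Coordinates are on build dm6 and all sequences read 5′ to 3′. Capitals mark the 6-mers ATTTAA (with its reverse complement TTAAAT) and TTTAAA, the classes with the largest gain in share from flanks to summits.
CG11050 (chr2L:6612663-6612763, plus strand): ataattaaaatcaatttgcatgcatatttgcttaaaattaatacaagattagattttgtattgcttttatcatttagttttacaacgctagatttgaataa
CG32772 (chrX:4910305-4910405, plus strand): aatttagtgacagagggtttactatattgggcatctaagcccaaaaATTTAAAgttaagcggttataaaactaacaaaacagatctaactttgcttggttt
norpA (chrX:4324940-4325040, plus strand): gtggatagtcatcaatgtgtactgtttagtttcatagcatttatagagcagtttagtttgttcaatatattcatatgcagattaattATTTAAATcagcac
Trl (chr3L:14759448-14759548, plus strand): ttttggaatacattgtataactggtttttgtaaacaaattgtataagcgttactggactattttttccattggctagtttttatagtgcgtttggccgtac
CG3726 (chrX:5918872-5918972, plus strand): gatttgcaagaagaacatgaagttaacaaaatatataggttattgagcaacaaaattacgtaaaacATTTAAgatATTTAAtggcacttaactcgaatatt
LPCAT (chrX:9579249-9579349, plus strand): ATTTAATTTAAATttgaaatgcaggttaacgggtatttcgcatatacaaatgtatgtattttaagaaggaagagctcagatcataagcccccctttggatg
CG9837 (chr3R:8811629-8811729, plus strand): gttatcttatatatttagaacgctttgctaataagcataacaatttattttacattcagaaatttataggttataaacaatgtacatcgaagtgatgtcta
CG9663 (chr2L:3302129-3302229, plus strand): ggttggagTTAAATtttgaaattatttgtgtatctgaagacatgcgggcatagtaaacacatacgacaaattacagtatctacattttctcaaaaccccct
The GC content of these windows ran from 20.8% in CG11050 to 34.7% in CG9663. CG11050, Trl and CG9837 hold neither 6-mer, but each has an unbroken run of A and T of at least 8 bases. An E-box, lower-case here, is present in the norpA and LPCAT windows and in none of the other 6.

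Signal over the 283 regions, the value that the authors gave each peak in the conservative list, ran from 47.7 to 887 with a median of 93.1 (95% interval 85.0 to 103) and quartiles of 70.5 and 138. The median was 80.7 (77.1 to 86.7) for the 367 intronic regions farther than 2000 bp from a TSS, called far introns below, and 107 (101.3 to 112) for the 754 regions within 500 bp of a TSS, called promoter regions. Near-TSS introns thus lay between these classes, with an interval that slightly overlaps both; the differences were not tested. Of the 100 strongest regions of the whole list, 17 were near-TSS intronic, 68 were promoter regions and 7 were far introns. These classes made up 16.3%, 43.4% and 21.1% of all regions, so near-TSS introns stood there at about their background share. Each replicate's own list has its own scale, so levels are compared only within a list and between replicates only the ranks and the correlation are compared.

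The strongest region, in CG11050 on 2L (6612596 to 6612863), ranked 3 of all regions, with a signal of 887. It scored 475 in replicate 1 and 408 in replicate 2, the highest value among the members in each. Its intron is only 140 bp long, and 47.8% of the region's bases are exonic although the summit is not. The next region lies at 2R 21703264 to 21703534, 558 bp from a start of HmgZ, in introns of both HmgZ and HmgD, which code for HMG-box chromatin proteins. It had a signal of 601, with 302 in replicate 1 and 287 in replicate 2. CG32772 on X (4910275 to 4910479) had 559.8, with 294 and 263 in the replicates. Adf1, a transcription factor first known from the Adh promoter, held a region of 525 on 2R (6662955 to 6663170), with 291 and 257 in the replicates.

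From Adf1 downward the order differed between the replicates. In norpA, the phospholipase C of phototransduction, the region at X 4324878 to 4325096 had a signal of 441, with 192 in replicate 1 and 259 in replicate 2. Trl, which codes for the GAGA factor, held a region of 440.3 at 3L 14759383 to 14759600, with 217 and 220.2. CG3726 had 403, with 178 and 229. LPCAT, a lysophosphatidylcholine acyltransferase gene, had 400.2, with 205 and 192. In CG9837 the signal was 391, with 182 and 214. The noncoding gene lncRNA:CR44810 held a region of 373, with 182 and 192. All 19 strongest regions were in both replicates' own lists.

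The other members of the 19 were CG9663 (364), NFAT (347), a transcription factor gene, chif (337), which codes for the regulatory subunit of the Cdc7 kinase, and mub (312), a KH-domain RNA-binding protein. They also included the forkhead gene CHES-1-like (311), the myosin phosphatase subunit MYPT-75D (288), the insulin-signalling inhibitor ImpL2 (286), the cGMP-dependent kinase for (279.7) and the Tec-family tyrosine kinase Btk (268). Of the 19 summits, 15 stand in the first intron of some transcript, and those of CG11050, Trl, lncRNA:CR44810 and MYPT-75D do not.

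**Figure D1:**
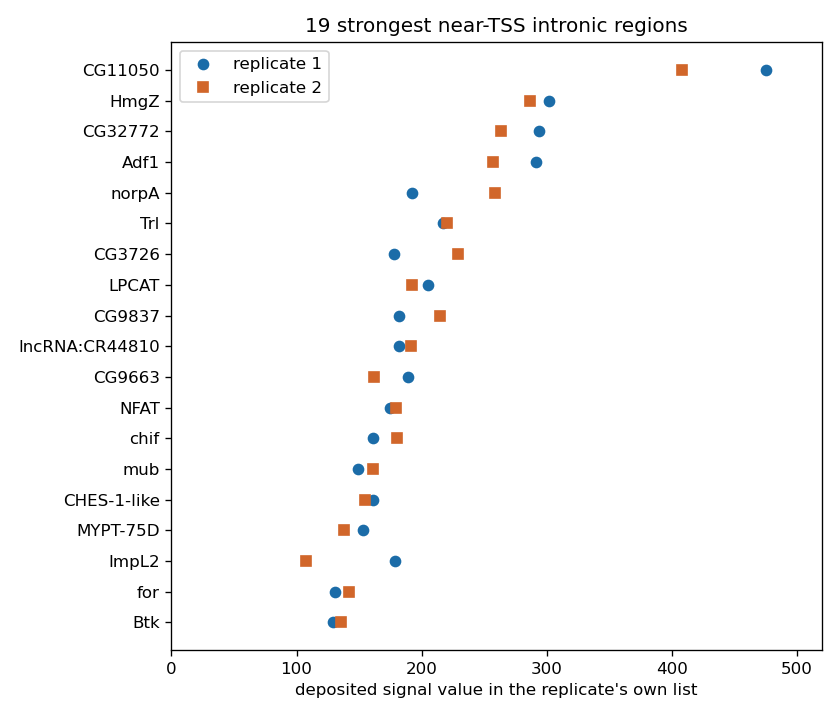
The 19 strongest near-TSS intronic regions, named by host gene, with the deposited signal (x axis, in the units of each replicate's own list) in replicate 1 (circles) and replicate 2 (squares). CG11050 stands highest in both, at 475 and 408, and Btk, the last of the 19, lies at 129 and 136.

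The replicates' own lists held fewer of the regions than the shared list. Replicate 1's list held 177 of the 283 (62.5%), where its share of all conservative regions was 61.5%, and replicate 2's list held 158 (55.8%), against 56.4%. Both lists held 132 (46.6%, 40.9 to 52.5%), against 47.0% of all regions, so the near-TSS intronic regions sat at the background. Replicate 1 alone held 45, replicate 2 alone held 26, and 80 (28.3%) were in neither list. The share in both was 37.6% (32.8 to 42.7%) for far introns and 56.1% (52.5 to 59.6%) for promoter regions.

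Whether a region was in both lists followed its rank. The rank and the own lists come from the same libraries, so they are not independent, and this describes the lists only. All 9 of the near-TSS intronic regions among the 50 strongest of the list, all 26 in the following ranks down to 200 and 43 of 45 from there to rank 500 were in both lists. From there to rank 1000 this was 53 of 83, and at weaker ranks it was 1 of 120. Over all regions the corresponding counts were 50 of 50, 148 of 150, 293 of 300, 308 of 500 and 19 of 739. A region outside a replicate's own list still had a candidate there in most cases. All but 5 of the regions not in replicate 1's list had one, at a median signal of 31.7 and a median rank of 1916. All but 2 of those not in replicate 2's list had one, at a median of 34.1 and a median rank of 1733.

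Candidate signals correlated between replicates with a Spearman coefficient of 0.739 and Pearson's r of 0.855 on log2 values (276 regions). For far introns the Spearman coefficient was 0.668 and for promoter regions 0.80. Every point is a region chosen for agreement between the same replicates, so these values describe the lists and no p is given. The median offset between candidate summit and shared summit was 12 bp in replicate 1 and 14 bp in replicate 2.

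**Figure D2:**
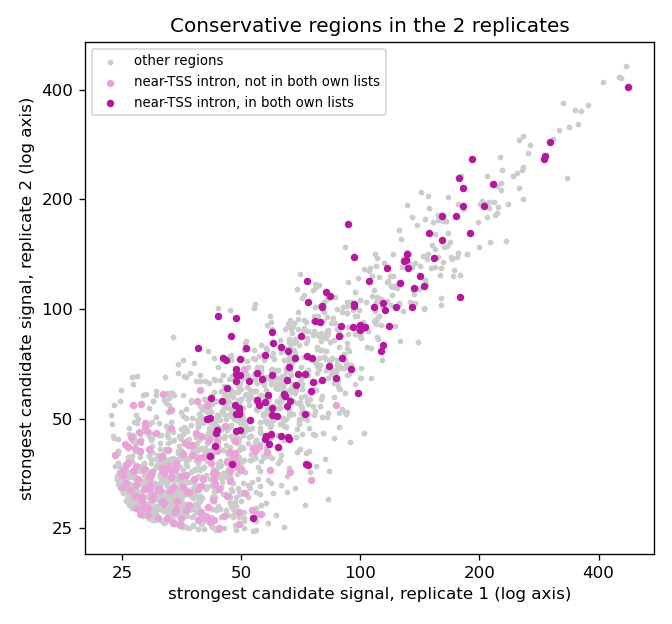
Signal of the strongest candidate in replicate 1 (x axis, log) against replicate 2 (y axis, log) for conservative regions, with near-TSS intronic regions in colour (dark where both own lists held the region) and all others in grey. The 276 near-TSS intronic regions with values in both run along the diagonal, from candidate signals near 24 up to 475 and 408.

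Introns near start sites held more bound summits per length of sequence than introns far from them. The intron sequence that could qualify covers 11.4 Mb, 8.32% of the genome, and held 24.7 summits per Mb, against 8.67 in 42.3 Mb of far introns, 41.3 in promoter sequence and 12.6 over the whole genome. Density fell with distance: 33.8 summits per Mb at over 500 to 750 bp (77 regions), 26.7 at 750 to 1000 bp (57), 20.9 at 1000 to 1500 bp (79) and 21.5 at 1500 to 2000 bp (70). Beyond the limit it was 13.1 at 2000 to 3000 bp, 12.2 at 3000 to 5000 bp and 6.92 beyond 5000 bp. Both replicates' own lists fell in the same way, from 25.02 to 13.5 per Mb between the first and last of the near bins in replicate 1 and from 22.4 to 12.6 in replicate 2, and to 4.04 and 3.56 beyond 5000 bp. The signal did not fall in the same order: the bin medians were 102, 83.4, 88.1 and 93.6 within 2000 bp and 83.9, 91.6 and 78.0 beyond.

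The candidates from which the lists were drawn did not thin out with distance. They numbered 848 per Mb at 500 to 750 bp and 1022 per Mb beyond 5000 bp. Of 10406 candidates in near-TSS introns, 286 (2.75%) are peaks of the conservative list, against 1.27% of all candidates, 0.877% in far introns and 4.32% in promoter regions. The share fell from 4.04% at 500 to 750 bp to 2.21% at 1500 to 2000 bp. These differences have no test, since candidates of 1 pool of libraries are not replicates.

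**Figure D3:**
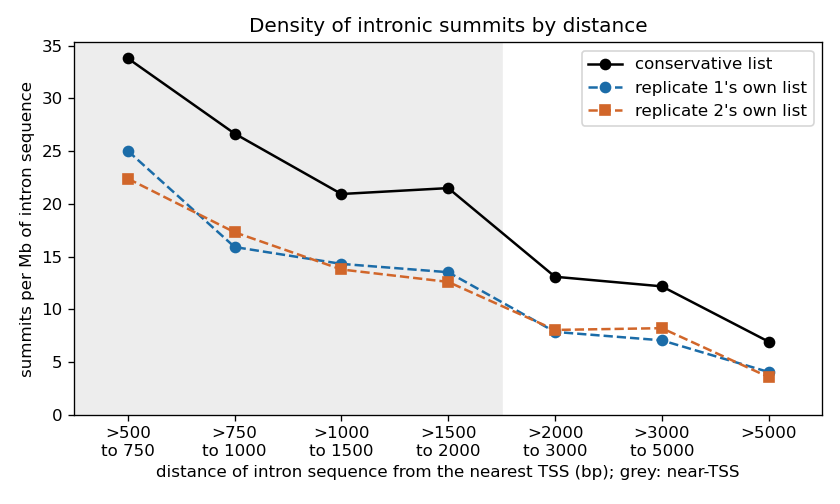
Summits per Mb of intron sequence (y axis) by distance of the sequence from the nearest TSS (x axis, bp), for the conservative list (black) and each replicate's own list (dashed), with the near-TSS bins shaded. All 3 curves fall, from 33.8 to 6.92 per Mb in the conservative list.

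The distance limits cut through a continuous range. Just outside the lower limit lay summits in CG3630 (497 bp, signal 79.5), ph-p (498 bp, 740.3) and Synd (499 bp, 73.8), and just inside it lay Gs2 (503 bp, 113), Pen (507 bp, 106) and pAbp (507 bp, 99.0). The strong ph-p region, in a gene of the Polycomb group, thus lies outside the 283 by a few bases. Just inside the upper limit lay oys (1969 bp, 76.1), pot (1978 bp, 102) and CG1677 (1995 bp, 68.9). Just outside it lay CG3764 (2004 bp, 124), lncRNA:CR44320 (2006 bp, 113) and Calx (2019 bp, 59.9). The median distance was 1021 bp.

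The nearest start site belonged to a gene that contains the summit for 243 of 283 regions (85.9%). In 162 (57.2%, 51.4 to 62.9%) the summit lay downstream of that start, where 54.5% of the eligible sequence lies. In 81 (28.6%, 23.7 to 34.2%) it lay upstream of a start of its own host gene, that is, in an intron of a longer transcript before the start of a shorter one, where only 16.6% of eligible sequence lies. The replicates' own lists gave 27.5% and 29.8%. The remaining 40 regions (14.1%) had the start of another gene nearest, against 28.9% of eligible sequence. NFAT, Trl, chif, ImpL2, MYPT-75D and the hypoxia factor gene sima (signal 139.8) held regions upstream of an internal start. For CHES-1-like the nearest start was that of lncRNA:CR43287, and for Btk that of tRNA:Lys-TTT-1-1. The nearest start was of a protein-coding gene for 263 regions and of a noncoding gene only for 20.

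First introns held 231 of the summits (81.6%, 76.7 to 85.7%), where they make up 64.5% of eligible sequence. The shares in the replicates' own lists were 84.7% and 86.2%. Far introns showed the same order at lower levels, with 58.6% of summits in first introns against 37.3% of their sequence. The longest annotated host intron around each summit had a median of 7947 bp, and 9 were under 500 bp. These lengths were not compared with those of all eligible introns.

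The X chromosome held 81 of the 283 (28.6%, 23.7 to 34.2%), though 19.2% of eligible sequence lies there. This is 36.8 summits per Mb on X and 22.2 on the autosome arms, a ratio of 1.66. In the first replicate alone it was 1.65, and the second replicate alone gave 21.8 on X against 14.6 per Mb on the arms. Far introns had a like ratio, 1.74, with 29.7% of summits on X. On X lay 18.2% of promoter regions and 20.8% of all regions, for which the X share of sequence was not computed. No summit lay on 4 or Y, whose eligible sequence is 0.129 and 0.0191 Mb. The 37 regions on 2L had a median signal of 135, above the medians of 85.3 on 2R, 86.5 on 3L, 84.9 on 3R and 99.8 on X. Repeat-masked bases covered over 50% of the window at 27 of the 283 (9.54%), against 11.4% of all regions.

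**Figure D4:**
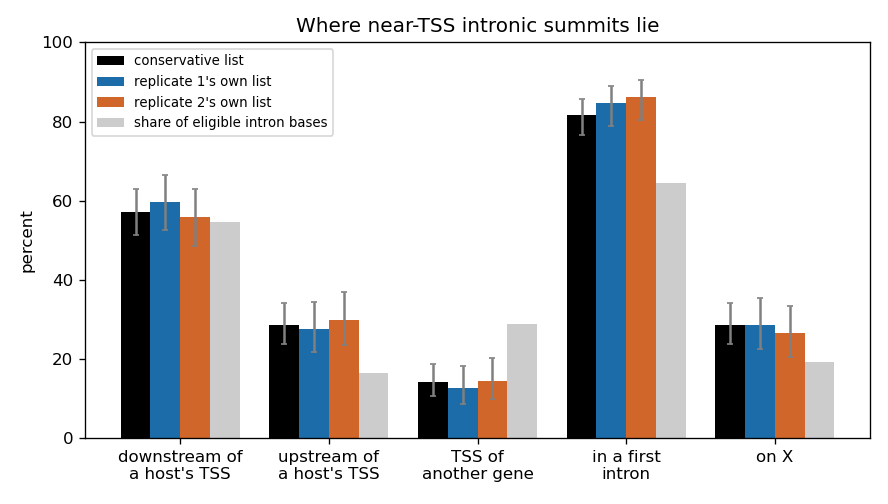
Share of near-TSS intronic summits (y axis, percent, bars with 95% Wilson intervals) by position, in the conservative list and each replicate's own list, beside the share of eligible intron bases (light grey). Summits upstream of a host's start, in first introns and on X exceed their share of sequence in all 3 lists, and those nearest another gene's start lie below it.

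The regions lay in 277 genes, of which 269 are protein-coding: 1.93% of all 13968 protein-coding genes and 2.98% of the 9015 with any eligible intron sequence. Since long genes offer more of that sequence, lists of genes are compared by regions per Mb of it, beside 25.03 per Mb over all protein-coding genes. No list was tested, and the lists were chosen with earlier results of these data known.

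Chromatin regulators stood highest, with 5 of 25 genes with eligible sequence hosting a region and 107 regions per Mb, on only 46.6 kb. They are HmgZ and HmgD, which share the strong region above, Trl, the Polycomb-group gene ph-p, by another region than the one at 498 bp (78.7, with 43.0 and 33.1 in the replicates) and psq, another GAGA-binding factor (70.1, with 29.2 and 41.2). HmgZ has a second region of 66.9. The latter 3 were not in both own lists. Of genes acting on the actin cytoskeleton, 4 hosts are given as values only, all of them in both own lists. Moe (moesin, linking actin to the membrane) had 212, with 108 in replicate 1 and 101.4 in replicate 2. Tsr, the actin-severing cofilin, had 125, with 68.6 and 61.7. The exchange factor gene trio had 124, with 38.8 and 77.9, and mbc, needed for myoblast fusion, had 94.7, with 42.0 and 57.1.

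The densities of the other lists shown here ran from 0 to 31.1 per Mb. Developmental signalling had 3 of 30 and 31.1 per Mb, all in both own lists: the insulin receptor gene InR (183), the BMP signal transducer Mad (116) and the JAK-STAT factor Stat92E (85.9). Axon guidance and adhesion had 4 of 29 and 21.4 per Mb: the netrin NetB (144), its receptor fra (147), the teneurin Ten-a (82.4) and the myoblast adhesion gene kirre (99.5). RNA-binding regulators had 4 of 21 and 21.7 per Mb, namely mub, the translational repressors brat (225) and pum (60.4), and the neuronal elav (84.0). The regions in mub and brat were in both own lists, and those in pum and elav in neither. The ecdysone genes EcR (85.5), Hr4 (56.8) and br (99.8) gave 28.3 per Mb, and none was in both own lists. Among neural and mesoderm factors rib (125) and ush (135) gave 23.3 per Mb. The list of ion channel and synapse genes had 11.1 per Mb, with 1 host among its 21 genes with eligible sequence, dlg1 (103). The dlg1 region was not in both own lists. It is a short list and does not cover every such gene: KCNQ (256), Irk1 (143) and Syn (100.05) are hosts outside it, named after their values were seen. Hippo and growth genes had no host among 20, on 28.7 kb, where the density of all genes gives fewer than 1 region.

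Of the peptidergic list, the genes of the cells dimm is best known for, 1 of 18 hosted a region, at 24.0 per Mb. It was ITP, coding for ion transport peptide, with a signal of 197 at 522 bp from a start and 96.2 and 103 in the replicates. This density is near the 25.03 per Mb of all genes.

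Several hosts hold more than 1 region. Of the host genes, 22 have at least 2, which together hold 50 of the 283, and 6 have at least 3. No background was computed for these counts, and genes with more eligible sequence can hold more regions. CG1677 and the overlapping lncRNA:CR44357, on X, hold the same 5, from 199 to 68.9, of which 2 were in both own lists. They have 23.0 and 30.6 kb of eligible sequence. The strongest of the regions also lies in Dok, an adaptor of tyrosine kinases. CG32264 holds 4, from 89.6 to 51.2, none in both. C3G, a Rap exchange factor, holds 3 (114 to 57.5), CHES-1-like 3 (311 to 74.6) and NFAT 3 (347 to 65.1). Others with 2 include pico (186 and 107), both in both own lists, the BMP receptor wit (173 and 67.5), the Dpp-response factor shn (196 and 63.0), the kinases Doa (97.6 and 72.8) and Src64B (114 and 80.9), Kank (153 and 55.3), Paip2, Shrm, tou, CG10543, CG43658, CG9663, CG9801, HmgZ and l(2)k01209.

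Some hosts belong to tyrosine kinase pathways; they were picked after the values were seen, from no fixed list and with no background, and are given as values only. Csk, which inhibits Src kinases, had 250.04, with 137 in replicate 1 and 114 in replicate 2. Src64B, a kinase of the Src family, had 114, with 55.6 and 54.4, Btk had 268 and InR had 183. Edl, a modulator of ETS factors, had 266. Sprouty (sty), an inhibitor of receptor tyrosine kinases, had 126, with 49.7 and 73.0. Raf had 105, with 52.5 and 49.5, and the FGF ligand gene ths had 154, with 70.6 and 84.5. The second Src64B region (80.9) and the region in Pvf3, a ligand of a receptor tyrosine kinase (94.8), were not in both own lists, and the others named here were.

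Some hosts carry a second bound region at the start site itself. A listed summit lay within 500 bp of the nearest TSS for 27 of the 283 (9.54%, 6.64 to 13.5%), for 15 of the 132 in both own lists (11.4%) and for 8.72% of far introns. Of all 23694 annotated TSS positions 5.25% had one. The promoter region was the stronger in elav (220.2 against 84.0 in the intron), sgg (239 against 60.8), chn (261 against 93.1) and Ptpmeg2 (235 against 88.8). The intronic regions of elav and sgg were not in both own lists. The intronic region was the stronger in Hsp83, a chaperone gene (178 against 129), MYPT-75D (288 against 82.8) and edl (266 against 65.6). Counting every start of a host, 54 (19.1%, 14.9 to 24.1%) had a bound start, against 16.35% (12.9 to 20.5%) of far introns. The 5.25% is counted per TSS position, so it is not a like measure for these shares.

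Summits of the near-TSS intronic regions were rich in A and T. Windows of 50 bases to either side of the summit had a median GC content of 31.7% (quartiles 26.7 and 37.6%), against 41.6% in the windows 500 bp to either side. The members of both replicates' own lists had 30.7% against 41.6%. Averaged over 51 bp steps, GC was 31.8% at the summit, 35.7 and 34.4% at 50 bp to either side, 42.7 and 41.7% at 100 bp and 44.0 and 44.1% at 250 bp. Far introns (32.9%) and promoter regions (31.4%) had like values at the summit. The 10120 candidates in near-TSS introns that were not listed had 43.0% there.

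Candidates were listed the more often the lower their GC content. Among near-TSS intronic candidates 51 of 280 (18.2%) below 25% GC were listed, 11.8% at 25 to 30%, 5.71% at 30 to 35%, 2.39% at 35 to 40%, 0.955% at 40 to 50% and 12 of 2227 (0.539%) at 50% or more. Promoter candidates went from 33.8 to 0.636% and far introns from 6.20 to 0.251%. Median signal of the members was 112 below 25% GC and 77.1 at 40% or more, and 56.9 and 29.4% of these were in both own lists. The part of base composition in what was listed was not tested.

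**Figure D5:**
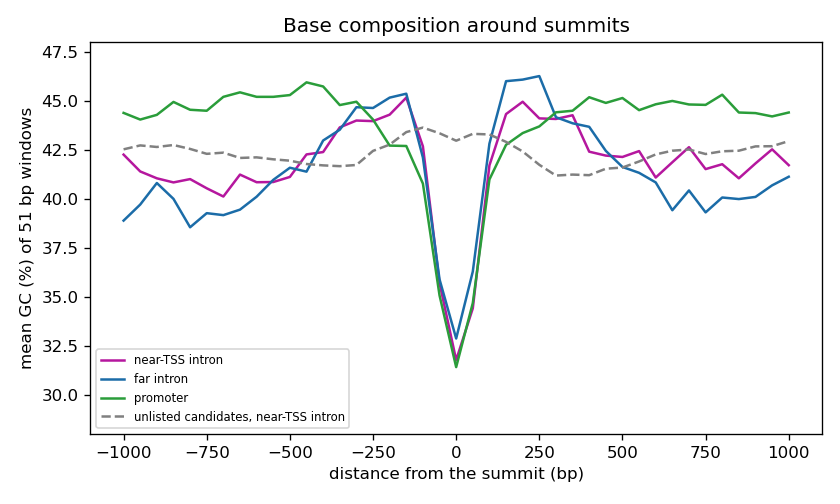
Mean GC content of 51 bp windows (y axis, percent, axis not from 0) by distance from the summit (x axis, bp) for near-TSS introns, far introns, promoter regions and unlisted near-TSS intronic candidates. The listed classes fall to between 31.4 and 32.9% at the summit, and the unlisted candidates stay at 43.0%.

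Among 2080 classes of 6-mers, each taken with its reverse complement, the gain from flank to summit was largest for ATTTAA, present in 34.3% of the windows and 11.5% of the flanks. TTTAAA followed with 27.9 against 10.6%, then TTAAAA with 35.3 against 19.1%, TAAATA with 32.2 against 16.3% and AATAAT with 27.6 against 12.01%. ATTTAA gave 36.5 against 13.8% in replicate 1's own members and 38.7 against 13.3% in replicate 2's. It was in 27.0% of far-intron windows, 35.4% of promoter windows and 14.4% of all near-TSS intronic candidates. All 36 classes made of A and T alone were more frequent at summits than flanks, which restates the low GC content in part, but not equally: AAAAAA gained 7.60 points, from 19.96 to 27.6%, where ATTTAA gained 22.8 points. The stronger 50% of members held ATTTAA in 39.7% (32.0 to 47.96%) and the weaker in 28.9% (22.1 to 36.8%). The largest losses were of ACACAC (1.77 against 11.3%), CACACA (4.24 against 13.4%) and CAACAA (7.77 against 16.4%).

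Shares of motifs at summits and flanks were not adjusted for their median GC content (31.7 against 41.6%). Gains and losses of motifs are thus not separated from base composition. Of 14 motifs sought on both strands, 5 have E-box letters. CANNTG, which covers every site of the other 4, was in 37.5% of the members' windows and 42.8% of the flanks, and in 33.2% of all 1739 regions. CAGCTG was in 3.18 against 4.42%, CACCTG in 2.47 against 3.004% and CACGTG in 0.353 against 1.41%. CATATG stood on the other side, with 19 of 283 windows (6.71%, 4.34 to 10.3%) against 3.004% (1.88 to 4.76%) of the flanks. It was in 2.997% of far introns, 2.92% of promoter regions, 3.91% of all regions and 3.22% of near-TSS intronic candidates. Regions outside genes, farther than 500 bp from a TSS, had 5.15% (3.09 to 8.45%), which overlaps the members' interval. The flanks of far introns had 4.77%. Replicate 1's own members gave 6.35 against 3.44% and replicate 2's gave 7.18 against 2.76%. The intervals of summit and flank overlap, and the difference was not tested. TAATTA, itself one of the A/T 6-mers, was in 10.6 against 5.83% and in 10.3% of all regions. GAGAGA, the letters of GAGA-factor sites, was in 3.89 against 8.13%, and GATAAG in 4.95 against 6.89%. ACACACAC was in 0.353 against 3.53%. TGANTCA was in 3.18 against 3.53% and GTAAACA in 2.83% of each. Against flanks 300 and 1000 bp away TGANTCA was higher at summits by 1.41 and 1.06 points, and GTAAACA by 0.177 and 1.06 points. The replicates differed for TGANTCA, with 2.12 against 1.85% in replicate 1's own members and 1.10 against 3.04% in replicate 2's. No window of the 283 held TATCGATA. The letters CAGGTAG were in none either, nor was GGTCACAC. Over 3 choices of flank CATATG and TAATTA were higher at summits with each, 7 motifs were lower with each, and 5 were mixed, among them GATAAG, which was higher at summits only against flanks 300 bp away.

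The CATATG members had a median signal of 94.8 against 92.9 for the rest, and 8 of 19 were in both own lists. After norpA (441), the strongest are shown here to give the setting of the site, with CATATG in capitals, on build dm6 and read 5′ to 3′; they were chosen after the motif counts were seen.
ImpL2 (chr3L:4228337-4228437, plus strand): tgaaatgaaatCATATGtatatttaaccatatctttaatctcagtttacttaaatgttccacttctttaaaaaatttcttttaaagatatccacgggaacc
Zw (chrX:19668560-19668660, plus strand): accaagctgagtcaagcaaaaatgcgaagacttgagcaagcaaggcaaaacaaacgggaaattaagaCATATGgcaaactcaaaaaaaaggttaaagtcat
Moe (chrX:8896237-8896337, plus strand): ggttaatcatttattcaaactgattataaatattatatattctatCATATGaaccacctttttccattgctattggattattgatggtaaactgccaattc
CG33181 (chrX:8492997-8493097, plus strand): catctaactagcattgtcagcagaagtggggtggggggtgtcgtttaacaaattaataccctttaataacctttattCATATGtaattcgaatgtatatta
ImpL2 had 178 in replicate 1 and 108 in replicate 2. Zw, coding for glucose-6-phosphate dehydrogenase, had 117 and 129.9. Moe had 108 and 101.4, and its site lies 2 bp from the summit. CG33181 had 73.0 and 37.5. Over the 19 the median distance from the summit was 29 bp and the median GC content 33.7%. Moe had the site nearest to its summit, and C3G the farthest, at 45 bp. In windows of 51 bp around the summit CATATG was in 2.83% of members, against 6.71% in the longer windows used above. Whether the sites gather at the summit was not tested.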

How the data were processed

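The series measured binding of dimm-eGFP by ChIP-seq in 1 group of 2 biological replicates, per the labels. The authors deposited peak lists (dm6 assembly, per the labels). There are, for both replicates singly and jointly, ranked candidates and lists thresholded on the irreproducible discovery rate (IDR). Each peak has a signal value that the authors deposited; for its normalization, for the aligner and for the peak caller the entry is: not given in the sources used here. Without reads in the lists, sequencing depth stays unknown.

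Peaks on 7 main chromosomes that overlapped by at least 1 bp were joined, keeping the summit of the highest signal, and placed on Ensembl release 115 genes (BDGP6.54, transposable elements left out) and the RefSeq Release 6 genome, which dm6 numbers identically. Coordinates are 1-based. Regions are not replicates, so shares carry 95% Wilson intervals and medians binomial order-statistic intervals, which cover counting error only, and no p was computed. Flanks are windows of the same length, 500 bp to both sides of the summit. Simulated windows with planted sites were used to check the counting of 6-mers. Work used Python 3.11.15, numpy 2.4.6, scipy 1.17.1 and matplotlib 3.10.9.

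The members, the gene lists and the rules were chosen with earlier results of these data known. Sequences are the 8 strongest members not on 2R that were in both own lists. Named genes are the 20 strongest members, hosts of 2 or more, hosts in 10 gene lists and the 3 regions on each side of each distance limit. Of these, 1 member, 1 host of several regions and the summary of 1 gene list are not reported here. The symbols Dl, Tor and nos had 2 matches each and sprouty had 0, so they stayed out of the lists. The GC profile, candidates by GC, A/T 6-mers, bound start sites, the split by signal, the CATATG sequences and the tyrosine kinase genes were chosen after seeing the data.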

Additional observations from a re-analysis of the deposited data

How the results depend on the processing

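No paired analysis was possible because the series has 1 group only. Over 10 kinds of alternative, 74 of the recomputed main values stayed within the 95% interval of the main value, or within 1.5-fold for the number of regions, and 18 did not. Each replicate's own list in place of the shared list, which leaves out the other replicate, gave 181 to 189 regions, a median signal of 59.4 to 63.6 on that list's own scale, 70.9 to 72.4% in both own lists and 15.8 to 16.5 regions per Mb. The stronger 50% of regions left 143 members, a median signal of 136, 88.1% in both own lists and 12.5 per Mb. With the lower distance limit at 750 bp the members were 11.85% of all summits, with a median distance of 1294 bp and 67.0% downstream of the nearest TSS, against 60.8%. This share is not limited to starts of host genes, unlike the 57.2% given above. With the upper limit at 1500 bp they were 12.25%, with a median distance of 886 bp. Starts of protein-coding genes alone put 90.4% nearest a start of their host. A window of 100 bases to either side of the summit gave a median GC of 34.8%. The moves in number follow from the construction of each alternative. Of the motif shares 22 moved and 34 did not, and of the differences from the flanks 6 moved and 22 did not. Without depth or a control library, the lists limit what can be said of weak regions, most of which were not in both own lists.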
